A study of Saccharomyces cerevisiae with 13 samples.

Results

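The arrays of S phase to G2 were compared with the arrays of mitosis and mitotic exit in a synchronous time course of budding yeast. Arrays were assigned to windows by their time label, and the windows were set with earlier results of these data known. The S/G2 window held 30, 40, 90 and 100 min after release, the mitotic window held 50, 60, 110 and 120 min, and together these are 8 of the 13 arrays of the series. The first pair of times in each window belongs to cycle 1 and the second pair to cycle 2. Of 6205 gene rows, 5843 had a value on all 8 arrays. In 9 of them a value sat at the limit of the deposited scale (2 or -2), and the other 5834 genes were tested.

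Both windows hold the same cells: W303 yeast labelled as mutant in YOX1 and YHP1, stopped in G1 by alpha factor, a mating pheromone, and let go into YEPD, a rich glucose medium. The labels do not say what kind of mutation was made. Sample RNA carried Cy5, and Cy3 marked RNA of an unsynchronised wild-type culture grown in YEPD, which is the only wild type here. A value is the log10 of sample over reference, centred on the median of its array, so that 0.30 stands for about 2-fold. Values in both windows share that reference, and the difference between them is a difference in time within the mutant. Each time point is 1 array of 1 course, so that p measures the scatter between serial arrays and not between cultures. In the fit of window and cycle, a change with time inside a window also counts as scatter.

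Budding yeast switches groups of genes on and off in a fixed order through its cycle. Histone genes are transcribed in S phase together with DNA synthesis. In G2 the activator Mcm1, with Fkh2 and Ndd1, turns on the CLB2 cluster, which encodes mitotic cyclins, the Polo kinase Cdc5, the APC activator Cdc20, and the factor Swi5. Swi5 stays in the cytoplasm until mitotic cyclin-dependent kinase is shut off, then enters the nucleus and turns on genes at the passage from mitosis to G1. Yox1 and Yhp1 are homeodomain repressors that bind beside Mcm1 at ECB elements, the early cell cycle boxes, and limit genes there to the M/G1 interval.

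Each array held values for between 6065 and 6170 genes. The deposited array medians lay between 0.0001 and 0.0078, and the SD over genes on an array was 0.0943 to 0.129. Across genes, arrays 10 min apart within a cycle correlated with r of 0.772 to 0.848. The a-specific genes, the defining set of the mating type that answers alpha factor, averaged 0.56 at 0 min and -0.25 to -0.08 on the 8 arrays, and the 4 alpha-specific genes averaged -0.04 to 0.03 there.

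YHP1 read -0.24, -0.16, -0.17 and -0.28 at 30, 40, 50 and 60 min and -0.28, -0.19, -0.20 and -0.13 at 90, 100, 110 and 120 min. It lay below the reference on all 8 arrays, with the windows overlapping. YOX1 read 0.08, -0.04, -0.23 and -0.53 in cycle 1 and -0.001, -0.04, -0.07 and -0.26 in cycle 2. It was near the reference on the S/G2 arrays and lower on the mitotic arrays, and the windows did not overlap within either cycle. The difference, mitotic minus S/G2, was -0.27 ± 0.07 (SE) for YOX1 with an adjusted p of 0.101, and 0.02 ± 0.04 (SE) for YHP1 with an adjusted p of 0.802. The labels do not place the probes relative to the altered stretches, so that these values do not check the mutations.

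Known markers went with the stages that the windows are named for here, with an overlap at their border. Windows and lists were chosen with earlier results of these data known, so that the markers are no independent check. The 9 histone genes had a median of 0.29 at 30 min and 0.23 at 90 min, the highest of the 13 arrays. The CLB2 cluster averaged -0.03, 0.21, 0.33 and 0.22 from 30 to 60 min and -0.04, 0.13, 0.19 and 0.21 from 90 to 120 min. It was thus already above its 30 and 90 min values on the arrays of 40 and 100 min, which the rule puts in the S/G2 window. The M/G1 list, 13 tested genes known to be switched on as cells leave mitosis and with targets of Swi5 among them, averaged -0.31, -0.28, -0.19 and 0.10 in cycle 1 and -0.09, -0.14, -0.12 and 0.04 in cycle 2, with the highest value of each cycle's 4 arrays at 60 and 120 min.

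**Figure D1:**
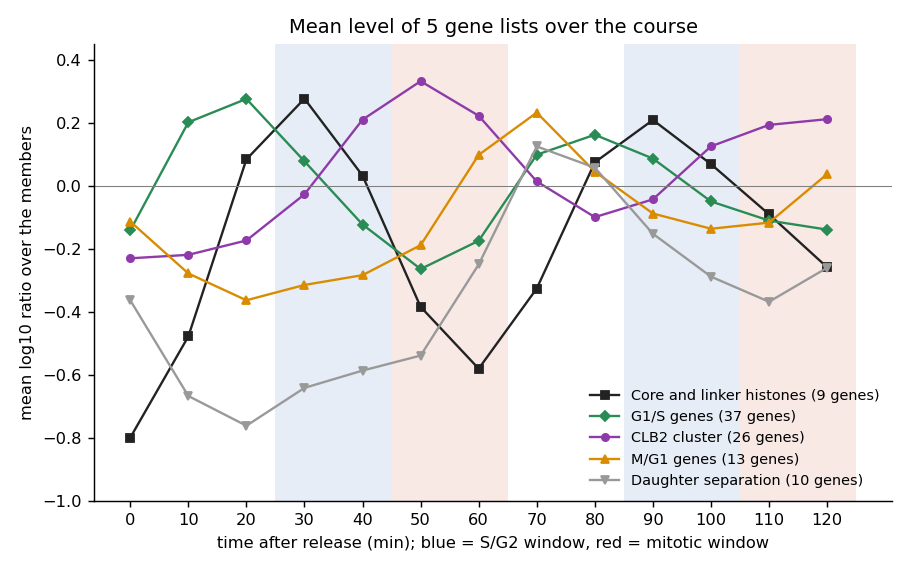
Mean log10 ratio over the members of 5 gene lists (y axis) on each of the 13 arrays, by time after release in min (x axis). The S/G2 window is shaded blue and the mitotic window red. Histones go from 0.28 at 30 min to -0.58 at 60 min and from 0.21 at 90 min to -0.26 at 120 min, the CLB2 cluster is at its highest at 50 min in cycle 1, and the M/G1 genes are at their highest at 70 min.

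Between the windows, 33 of 5834 genes passed the test over both cycles (limma, Benjamini-Hochberg adjusted p below 0.05, called from here on). Of these, 13 were higher in the mitotic window, 0.223% of the genes tested, and 20 were lower, 0.343%. The lower group was led by histone genes, 4.03-fold for HTA1. The higher group was led by 2 related membrane protein genes, 4.42-fold for MRH1 and 3.73-fold for YRO2. In bulk RNA, fewer cells at a stage and less RNA per cell cannot be told apart.

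All 33 genes kept the windows apart within each cycle, and 29 of them also when all 4 mitotic arrays were set against all 4 S/G2 arrays. Such separation was common: the windows were apart in both cycles, upward for 514 genes (8.81%) and downward for 483 genes (8.28%). With at least a 1.5-fold difference as well, 36 genes were higher and 74 lower. An unadjusted p below 0.05 was reached by 1122 genes, and adjusted p ran from 0.00708 for PHO5 to 0.0493 for BNS1 and HHF1 among those called.

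Which genes passed depended on single arrays. Without the array of 40 or of 120 min no gene was called (950 and 931 at unadjusted p below 0.05), without 50, 60 or 90 min 1 gene, without 30 min 4, without 110 min 74 and without 100 min 119, and a fit of all 13 arrays called none (837 at unadjusted p below 0.05). The direction of all 33 genes was the same in each of the 19 alternative settings tried. Their windows were apart within each cycle, so that leaving out or weighting arrays could not have turned it. The shared direction therefore adds no support to the calls.

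**Figure D2:**
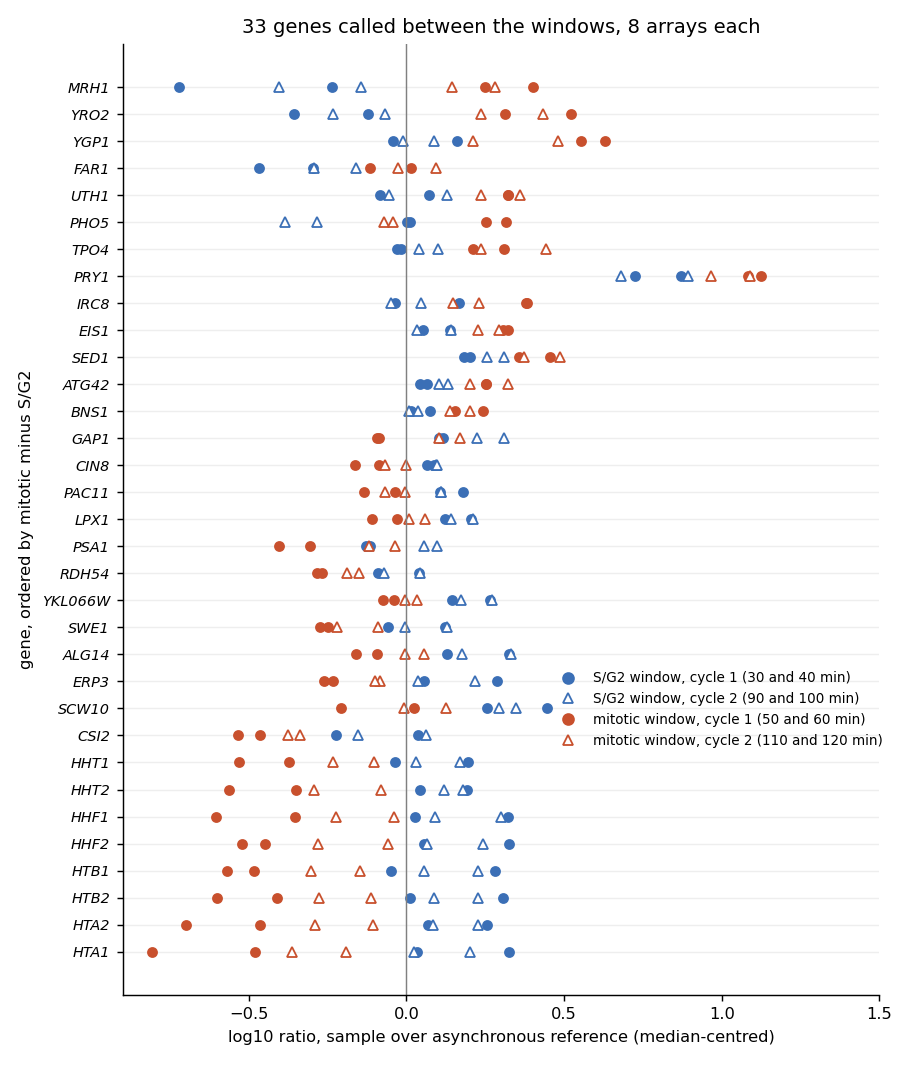
Log10 ratio of the sample over the asynchronous reference (x axis) on each of the 8 arrays for the 33 called genes, ordered by their difference between windows (y axis). Blue marks the S/G2 window and red the mitotic window, filled circles cycle 1 and open triangles cycle 2. In PSA1, GAP1, PHO5 and IRC8 the colours overlap once the cycles are pooled, and in the other 29 genes they do not.

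Among the genes lower in mitosis, 8 of 20 encode core histones, the proteins that wrap DNA into nucleosomes. HTA1, an H2A gene, read 0.32, 0.03, -0.48 and -0.81 from 30 to 60 min and 0.20, 0.02, -0.19 and -0.36 from 90 to 120 min. Each step in time brought a lower value, in both cycles, and no mitotic array reached an S/G2 array. Its mean was 0.15 ± 0.14 (SD, n = 4) in the S/G2 window and -0.46 ± 0.26 (SD, n = 4) in the mitotic window, a difference of -0.61 ± 0.10 (SE) with an adjusted p of 0.0392.

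The other H2A gene HTA2 fell by 0.55, the H2B genes HTB2 and HTB1 by 0.51 and 0.50, the H4 genes HHF2 and HHF1 by 0.50 and 0.49, and the H3 genes HHT2 and HHT1 by 0.46 and 0.40 on the log10 scale. Fold values for these 7 genes ran from 2.51 for HHT1 to 3.54 for HTA2. The linker histone gene HHO1 had a difference of -0.27 ± 0.07 (SE) and an adjusted p of 0.0971, so that it was not called, although its windows were apart in both cycles. The histone list therefore held 8 called members of 9, all downward, and a median of -0.50 against 0.0041 for all genes tested. Copies of one histone type are near identical in sequence, and their separate values are uncertain.

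SWE1, the Wee1 kinase that holds back mitosis, read 0.12, -0.06, -0.27 and -0.25 in cycle 1 and 0.13, -0.003, -0.09 and -0.22 in cycle 2. CIN8, a kinesin that pushes spindle poles apart, read 0.06, 0.09, -0.09 and -0.16, then 0.09, 0.10, -0.003 and -0.07. PAC11, the intermediate chain of dynein, read 0.18, 0.11, -0.03 and -0.13, then 0.11, 0.11, -0.004 and -0.07. In CIN8 the S/G2 arrays of each cycle stood close together and the mitotic ones lay below them. PAC11 did so in cycle 2, while in cycle 1 its 30 min value stood above the other 3 S/G2 values, and SWE1 was already lower at 40 than at 30 min.

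The folds were 1.80 for SWE1, 1.47 for CIN8 and 1.54 for PAC11, with adjusted p of 0.0471, 0.0392 and 0.0392. RDH54, a DNA translocase of recombination, was 1.60-fold lower with an adjusted p of 0.0471. Its 4 mitotic values lay between -0.28 and -0.15 and its S/G2 values between -0.09 and 0.04.

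CSI2, linked to chitin synthesis, read 0.04, -0.22, -0.53 and -0.46 in cycle 1 and 0.06, -0.15, -0.34 and -0.38 in cycle 2. SCW10, a wall glucanase, read 0.44, 0.26, 0.02 and -0.21, then 0.35, 0.29, 0.12 and -0.01. Both were higher on every S/G2 array than on any mitotic array, 2.28-fold and 2.25-fold in the mean, but SCW10 started well above the reference and CSI2 ended well below it. ERP3, a p24 protein of vesicle transport, was 2.08-fold lower, ALG14, which helps start N-linked sugar chains, 1.95-fold, and PSA1, which makes the GDP-mannose used for wall mannoproteins, 1.57-fold.

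The other called decreases were LPX1, a peroxisomal lipase, at 1.54-fold, GAP1, the general amino acid permease, at 1.46-fold, and YKL066W, which the reference table does not name, at 1.72-fold. GAP1 read 0.10, 0.11, -0.09 and -0.09 in cycle 1 and 0.31, 0.22, 0.17 and 0.10 in cycle 2. Its cycle 2 values all lay above its cycle 1 mitotic values, so that the separation held within the cycles and not across them. PSA1 had the same kind of offset, with mitotic values of -0.31 and -0.40 in cycle 1 and -0.04 and -0.12 in cycle 2.

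MRH1 and YRO2 led the genes higher in mitosis. They encode related membrane proteins of the yeast Hsp30 family. MRH1 read -0.72, -0.24, 0.25 and 0.40 from 30 to 60 min and -0.41, -0.14, 0.14 and 0.28 from 90 to 120 min. YRO2 read -0.36, -0.12, 0.31 and 0.52, then -0.23, -0.07, 0.24 and 0.43. Both were below the reference on all 4 S/G2 arrays and above it on all 4 mitotic arrays, and both went up at each step in both cycles.

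The difference was 0.65 ± 0.11 (SE, adjusted p 0.0392) for MRH1 and 0.57 ± 0.07 (SE, adjusted p 0.0249) for YRO2. EIS1, a protein of eisosomes, the furrows of the plasma membrane, was 1.57-fold higher, with 0.03 to 0.14 on the S/G2 arrays and 0.23 to 0.32 on the mitotic arrays. NCE102, another eisosome protein, which was picked out after its values were seen, read -0.25, 0.01, 0.15 and 0.22 and then -0.20, 0.04, 0.23 and 0.38. Its difference of 0.34 ± 0.07 (SE) had an adjusted p of 0.0517.

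YGP1, a secreted glycoprotein known from cells short of nutrients, read -0.04, 0.16, 0.55 and 0.63 in cycle 1 and -0.01, 0.09, 0.21 and 0.48 in cycle 2. UTH1, a SUN family protein of the wall and mitochondria, read -0.09, 0.07, 0.32 and 0.32, then -0.05, 0.13, 0.24 and 0.36. PRY1, a secreted sterol-binding protein, read 0.72, 0.87, 1.12 and 1.08, then 0.68, 0.89, 0.97 and 1.09. PRY1 was the one called gene that stood far above the reference on all 8 arrays, so that the change between windows was a 1.87-fold addition to an already high level.

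The folds were 2.63 for YGP1 and 1.97 for UTH1. SED1, a GPI-anchored wall protein, was 1.52-fold higher, with S/G2 values of 0.18 to 0.31 and mitotic values of 0.36 to 0.49. The wall list as a whole was mixed. Of 28 tested members, SED1 was called higher and SCW10 lower, 5 were apart upward (17.9%, against 8.81% of all genes) and 9 downward (32.1%, against 8.28%) in both cycles, and the median was -0.04.

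FAR1 encodes the inhibitor that stops G1 cyclin-dependent kinase when pheromone is present. It read -0.47, -0.30, -0.12 and 0.01 from 30 to 60 min and -0.29, -0.16, -0.03 and 0.10 from 90 to 120 min, a monotonic climb in both cycles. The difference was 0.30 ± 0.05 (SE), 1.97-fold, with an adjusted p of 0.0392. FAR1 was the only called member of the 27 mating genes, whose median was 0.01, and the only one called of 13 tested M/G1 genes.

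PHO5, the main secreted acid phosphatase, had the lowest adjusted p of all genes, 0.00708, and was called in 14 of the 19 alternatives. It read 0.003, 0.01, 0.25 and 0.32 in cycle 1 and -0.39, -0.28, -0.07 and -0.04 in cycle 2. The cycle 2 values lay below the cycle 1 values throughout, but the step was the same in size, 1.89-fold in cycle 1 and 1.90-fold in cycle 2. PHO3, its neighbouring paralog of near-identical sequence, had a difference of 0.19 ± 0.04 (SE) and an adjusted p of 0.0630, and the array values of the pair are uncertain for that reason. No other phosphate gene was called, and the 17 members had a median of 0.0050.

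The last 4 called increases were TPO4, a polyamine exporter, at 1.89-fold, IRC8, a bud tip protein of the CLB2 cluster, at 1.79-fold, ATG42, a vacuolar carboxypeptidase, at 1.49-fold, and BNS1, a relative of the mitotic exit factor Spo12, at 1.42-fold. TPO4 read -0.02, -0.03, 0.21 and 0.31, then 0.10, 0.04, 0.24 and 0.44, flat within the S/G2 window and higher on every mitotic array. IRC8 read -0.04, 0.17, 0.38 and 0.38, then -0.05, 0.04, 0.23 and 0.15, so that its 120 min value lay below its 40 min value.

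Members of the CLB2 cluster all lay above 0 in the difference between windows. Of 26 tested members, 26 had a positive difference over both cycles, against 3132 of 5834 genes, and the median was 0.16. All 26 were also positive in cycle 1 alone and in cycle 2 alone. The windows were apart upward in both cycles for 11 of them (42.3%, against 8.81% of all genes), yet IRC8 alone was called. CHS2, the chitin synthase that builds the primary septum, had the largest difference of the cluster, 2.87-fold, but was not called, with an adjusted p of 0.0612.

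CHS2 read -0.21, 0.29, 0.57 and 0.58 in cycle 1 and -0.16, 0.17, 0.34 and 0.43 in cycle 2. CLB2, the main mitotic cyclin, read -0.21, 0.15, 0.32 and 0.18, then -0.20, 0.08, 0.12 and 0.13. CDC5, the Polo kinase, read -0.06, 0.23, 0.41 and 0.28, then -0.08, 0.16, 0.24 and 0.23. In each of these genes the 30 and 90 min arrays were far below the other 6, and the 40 and 100 min arrays lay closer to the mitotic ones. That rise inside the S/G2 window counts as scatter in the comparison of windows. For CHS2 the SE was 0.098 there and 0.057 for 40/100 against 30/90 min in the fit of positions.

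CLB1, a mitotic cyclin, read -0.34, 0.20, 0.29 and 0.07, then -0.14, 0.16, 0.21 and 0.17, with a difference of 0.22 ± 0.10 (SE) and an adjusted p of 0.289. SWI5 had a difference of 0.23 ± 0.06 (SE, adjusted p 0.0986) and CDC20 one of 0.19 ± 0.05 (SE, adjusted p 0.0952). The remaining members ran from 0.02 for VAC17, which ties the vacuole to its motor, to 0.32 for MMR1, which does so for mitochondria.

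**Figure D3:**
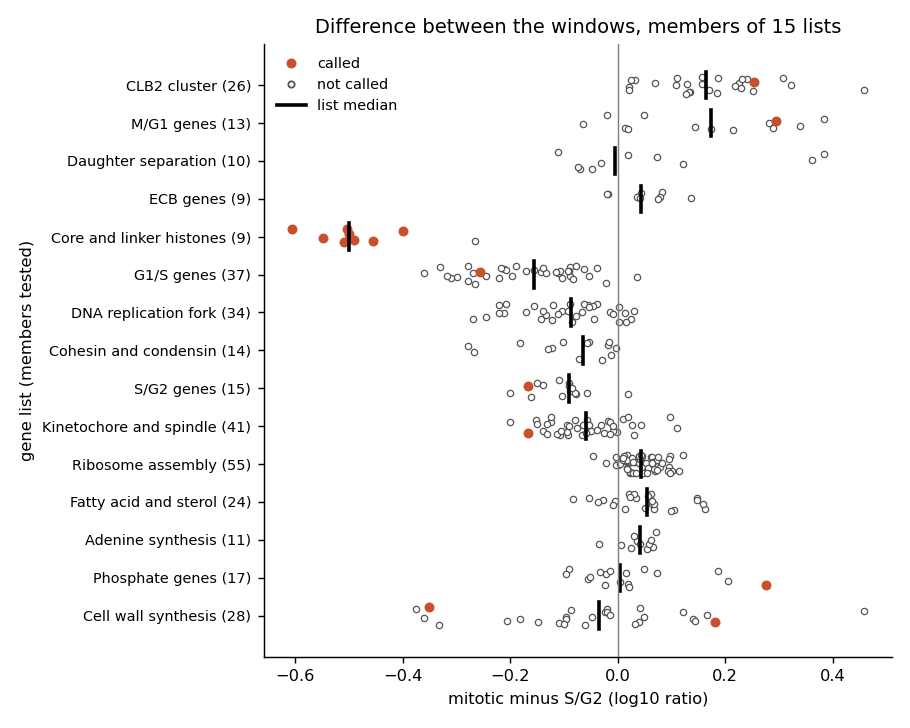
Difference between the windows (x axis, log10 ratio, mitotic minus S/G2) for each tested member of 15 gene lists (y axis, number tested in parentheses). Filled red points are called genes, open points are not, and the black bar is the list median. The CLB2 cluster lies wholly above 0, the 9 histones and the 14 cohesin and condensin genes wholly below, and few members of any list other than the histones were called.

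The order of events inside the windows was then taken position by position, with the array of the other cycle as the second array of each time. From 30/90 to 40/100 min, 9 genes were called higher (0.154% of 5834) and 4 lower (0.0686%), with 448 genes at unadjusted p below 0.05. The 9 were CLB1, CLB2, CDC5, CHS2, HOF1 of the cytokinetic ring and MMR1, all 6 in the CLB2 cluster, with SFG1, a transcription factor for growth as filaments, YNL058C, and NCE102. None of these 9 was called in the comparison of windows.

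CLB1 and CHS2 were 2.64-fold and 2.58-fold higher at 40/100 than at 30/90 min, with adjusted p of 0.0398 for each. HOF1 was 2.49-fold higher with an adjusted p of 0.0291. The 4 lower genes were HXT2, a glucose transporter, at 2.33-fold, SVS1, a wall protein, at 1.98-fold, PRY2, the paralog of PRY1, at 1.80-fold, and PCL1, a G1 cyclin, at 1.76-fold. Without the array of 40 min neither direction held a call (261 at unadjusted p below 0.05), without 90 min 15 genes were higher and 24 lower, without 30 min 0 and 2, without 100 min 2 and 1, without 50 or 110 min 5 and 0, and without 60 or 120 min 4 and 2.

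PRY2 stood opposite to PRY1 in the sign of its difference between windows. It read 0.35, 0.06, -0.15 and -0.12, then 0.38, 0.17, 0.004 and -0.04. Its difference between windows was -0.32 ± 0.06 (SE, adjusted p 0.0547), while that of PRY1 was 0.27 ± 0.05 (SE, adjusted p 0.0471).

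From 50/110 to 60/120 min no gene was called by limma in either direction, 313 had an unadjusted p below 0.05, and limma with a robust and trended prior called none either. Genes of the M/G1 list had positive differences over this interval for 12 of 13 tested members, with a median of 0.19 against 0.0029 for all genes. The CLB2 cluster had positive differences for 5 of 26, with a median of -0.06. From 30/90 to 40/100 min the medians stood the other way round, at -0.02 for the M/G1 genes and 0.17 for the CLB2 cluster.

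ASH1, the repressor of HO in daughter cells, read -0.15, -0.17, -0.05 and 0.42 in cycle 1 and -0.09, -0.09, 0.03 and 0.26 in cycle 2. SIC1, the inhibitor of B-type cyclin kinase, read -0.30, -0.42, -0.25 and 0.15, then -0.16, -0.27, -0.19 and 0.004. PCL9, a cyclin of the Pho85 kinase, read -0.57, -0.43, -0.23 and 0.32, then -0.21, -0.16, -0.26 and 0.15. In all 3 the last array of each cycle was the highest of its 4. For PCL9 and SIC1 the 110 min array lay within or near the S/G2 values of its cycle, and PCL9 was already higher at 50 than at 40 min in cycle 1.

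The differences of 60/120 against 50/110 min were 0.35 ± 0.06 (SE) for ASH1, 0.29 ± 0.06 (SE) for SIC1 and 0.48 ± 0.10 (SE) for PCL9. Their unadjusted p were 0.000142, 0.000939 and 0.00109, and their adjusted p 0.291, 0.391 and 0.398. NIS1 and TEC1 had differences of 0.38 and 0.20 with adjusted p of 0.383 and 0.398. EGT2, a wall protein of cell separation, had the largest difference of the list, 0.59 ± 0.21 (SE, adjusted p 0.769), and read -0.73 and 0.10 at 50 and 60 min but -0.48 and -0.14 at 110 and 120 min. Without the array of 120 min 20 genes were called higher and 3 lower over this interval.

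**Figure D4:**
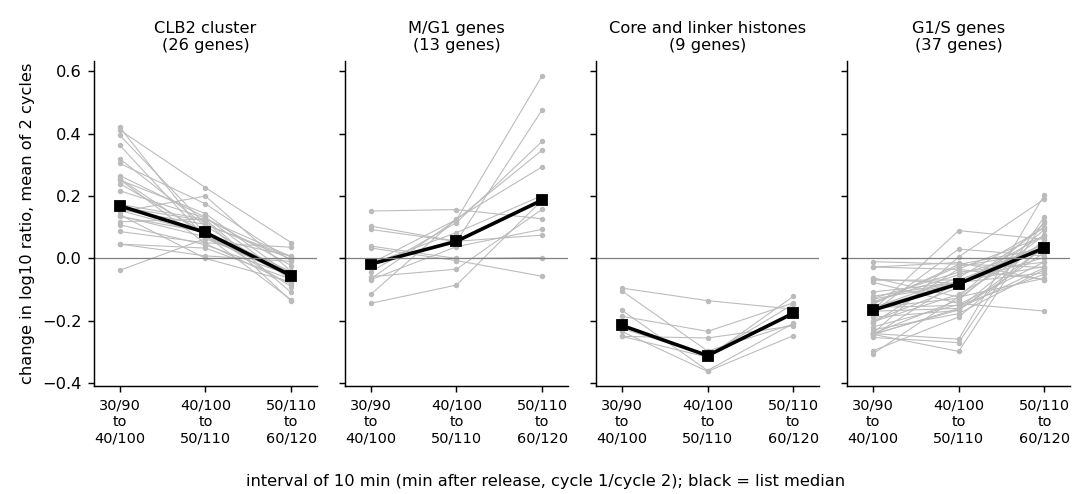
Change in log10 ratio over each 10 min interval, averaged over the 2 cycles (y axis), for the members of 4 gene lists in grey and their median in black. The x axis gives the interval in min after release, cycle 1 before cycle 2. The median of the CLB2 cluster goes from 0.17 to -0.06 over the 3 intervals and that of the M/G1 genes from -0.02 to 0.19, while histones are below 0 in all 3.

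Histone differences were negative in all 3 intervals, with medians of -0.22, -0.31 and -0.18. Among the 33 called genes, 31 had the largest of their 3 intervals in the middle one, between 40/100 and 50/110 min, which is where the windows meet. The difference between windows counts the middle interval in full and the outer ones only in part. Genes picked by that difference therefore tend to have a large middle interval, and no share over all genes was taken. The CLB2 cluster had a median of 0.08 in the middle interval.

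Genes of daughter separation had steps of mostly opposite sign in the 2 cycles. Of 10 tested members, 9 had a positive step in cycle 1 and 1 in cycle 2. Their medians were 0.09 and -0.08, against 0.0053 and 0.0042 for all genes. No share of positive steps over all genes was taken within a cycle. The median over both cycles was -0.0050. None was called, and for the difference between cycles 7 of the 10 reached an unadjusted p below 0.05 but none an adjusted one. DSE2, a glucanase of the daughter side, read -1.21, -1.21, -1.29 and -0.95 from 30 to 60 min and -0.17, -0.44, -0.59 and -0.64 from 90 to 120 min. DSE1 had steps of 0.09 and -0.19, an unadjusted p of 0.00224 for their difference and an adjusted p of 0.651.

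In DSE2 cycle 2 began far above cycle 1 and ran down, while cycle 1 stayed low until 60 min. All 10 members were higher at 70 than at 60 min. The mean of the list was -0.64 at 30 min, 0.12 at 70 min and -0.15 at 90 min.

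The ECB genes, the group that Yox1 and Yhp1 restrain, differed little between the windows. Of 9 members 7 had a positive difference (77.8%, against 53.7% of all genes), 2 were apart upward in both cycles (22.2%, against 8.81%), and none was called. The median between the windows was 0.04. From the earlier to the later time of the mitotic window, all 9 members had a positive difference, against 52.9% of all genes. That difference had a median of 0.0415, against 0.0029 for all genes, and no member was called by it. The mean of the list went from 0.139 to 0.223 there in cycle 1 and from 0.125 to 0.156 in cycle 2. CLN3, the upstream G1 cyclin, read -0.08, -0.06, -0.02 and 0.19 in cycle 1 and -0.02, -0.03, -0.04 and 0.002 in cycle 2. SWI4, the DNA-binding subunit of SBF, read 0.21, 0.01, -0.09 and 0.29, then 0.10, 0.03, 0.06 and 0.02.

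In both genes the 60 min array was the highest of the mitotic window. Among the S/G2 and mitotic arrays of cycle 2, that of 120 min was the highest for CLN3, by a small margin, and the lowest for SWI4. The differences between windows were 0.08 ± 0.04 (SE, adjusted p 0.339) for CLN3 and -0.02 ± 0.07 (SE, adjusted p 0.92) for SWI4, whose sign turned without the array of 30 min (0.02) or of 50 min (0.06). MCM2, a subunit of the replicative helicase, had the largest difference of the group, 0.14 ± 0.04 (SE, adjusted p 0.118). The other 5 MCM genes lay between 0.04 and 0.08.

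Lists of earlier cycle stages lay below 0. The G1/S genes had negative differences for 36 of 37 members, a median of -0.16 and 19 members apart downward in both cycles (51.4%, against 8.28% of all genes), with SWE1 the one called. The S/G2 genes had 14 of 15 below 0, a median of -0.09 and 10 apart downward (66.7%), with CIN8 called. Replication fork genes had a median of -0.09 with 12 of 34 apart (35.3%), cohesin and condensin genes -0.06 with 6 of 14 (42.9%), and kinetochore and spindle genes -0.06 with 16 of 41 (39.0%), CIN8 again the one called.

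Among G1/S genes picked out after their values were seen, RNR1, the large subunit of ribonucleotide reductase, read -0.05, -0.37, -0.77 and -0.50 in cycle 1 and -0.09, -0.28, -0.42 and -0.42 in cycle 2. CLN2, a G1 cyclin, read -0.17, -0.46, -0.64 and -0.51, then 0.11, -0.09, -0.24 and -0.33. Both were lowest at 50 min in cycle 1 and at 120 min in cycle 2. Their differences of -0.33 and -0.28 had adjusted p of 0.0753 and 0.0632.

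Growth and metabolic lists had medians nearer 0. Ribosome assembly genes had positive differences for 51 of 55 members, with a median of 0.04 and 12 apart upward (21.8%, against 8.81% of all genes). Fatty acid and sterol genes had a median of 0.05 with 11 of 24 apart upward (45.8%), and adenine synthesis genes 0.04 with 7 of 11 (63.6%). Ribosomal protein genes had a median of 0.02 with 6 of 134 apart upward (4.48%, below the share of all genes), and citric acid cycle genes -0.05 with 3 of 14 apart downward (21.4%, against 8.28% of all genes). No member of these 5 lists was called.

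Hexose transporters had larger medians within the windows than between them, and HXT2 was the one member called, within the S/G2 window. Their median was -0.15 from 30/90 to 40/100 min and 0.11 from 50/110 to 60/120 min, where all 9 were positive, and 0.02 between the windows. HXT2 read 0.13, -0.27, -0.21 and 0.15, then -0.01, -0.34, -0.46 and -0.19, lowest at 40 min in cycle 1 and at 110 min in cycle 2. Respiration genes had positive differences for 30 of 33 members from 50/110 to 60/120 min, with a median of 0.05.

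Within single cycles, most called genes had the larger step in the first. Cycle 1 alone gave 27 genes higher (0.463%) and 112 lower (1.92%). Of these 139 genes, 30 were among the 33 called over both cycles, but the 2 calls share the cycle 1 arrays. The same sign in cycle 2 was seen for 117 of the 139. Cycle 2 alone gave no call by limma, with 299 genes at unadjusted p below 0.05 and a lowest adjusted p of 0.283, and none with the robust and trended prior. The SD of the step over all genes was 0.092 in cycle 1 and 0.0581 in cycle 2.

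Of the 33 called genes, 32 had the smaller step in cycle 2, with a median ratio of 0.648, and PHO5 was the exception. These genes were picked by the mean of both steps, and steps over all genes spread wider in cycle 1. A larger first step among them is therefore partly built in, and no share over all genes was taken. The histones had folds of 2.65 to 6.62 in cycle 1 and 1.28 to 2.45 in cycle 2. The difference between the steps passed for no gene by limma (421 at unadjusted p below 0.05, lowest adjusted p 0.651), nor with the robust and trended prior, so that a smaller second step was not shown for any single gene. Over all 5834 genes the steps of the 2 cycles correlated with r = 0.511 and a Spearman rho of 0.363, as a description across genes that share arrays and reference.

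The count in cycle 1 rested on the arrays as well. Without the array of 110 or of 120 min no gene was called in cycle 1 (1246 at unadjusted p below 0.05 in each), without 30 min 0 were higher and 1 lower, without 60 min 1 and 1, without 90 or 100 min 11 and 60, without 50 min 142 and 172, and without 40 min 120 and 281.

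**Figure D5:**
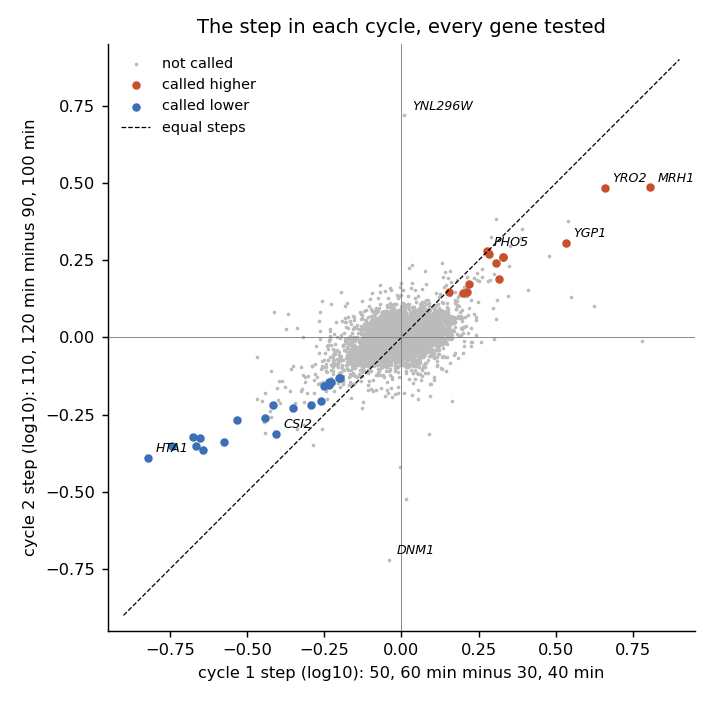
Step in cycle 2 (y axis) against step in cycle 1 (x axis), both as log10 ratio of mitotic minus S/G2 arrays, for the 5834 genes tested. Red points are genes called higher, blue points genes called lower, grey points the rest, and the dashed line marks equal steps. All called genes lie in the quadrants of like sign and 32 of the 33 lie on the side of the dashed line towards the x axis. DNM1 and YNL296W each owe a large cycle 2 step to 1 array.

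After cycle 1, the only cycle followed by later arrays, most called genes moved back from their mitotic levels. These genes were picked by values that include the 60 min array, so that some move back is built in. No share over all genes was taken. At 70 min 12 of the 13 genes called higher were below their 60 min value and 19 of the 20 called lower were above theirs. At 80 min 10 of the 12 higher genes with a value, and 19 of the 19 lower ones, were nearer to their S/G2 mean of cycle 1 than to their mitotic mean of cycle 1. The mean of the 13 genes was 0.40 at 60 min, 0.21 at 70 min and 0.02 at 80 min, and that of the 20 genes was -0.37, -0.12 and 0.13.

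Of the CLB2 cluster, 3 of 26 members were higher at 70 than at 60 min, and of the M/G1 genes 12 of 13. Over all 13 arrays the mean of the CLB2 cluster was highest at 50 min and that of the M/G1 genes at 70 min. Among only the S/G2 and mitotic arrays of cycle 2, both means were highest at 120 min, the last array, at 0.21 and 0.04.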

How the data were processed

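RNA of 13 time points of 1 yeast course was measured on two-colour arrays, 1 per time. The authors deposited 1 table of log ratios, sample (Cy5) over asynchronous wild type (Cy3) per the labels, with no dye swap. Their base was read as log10 from the limit at 2 and -2 and is inferred. The sources used here do not say how the authors corrected background, normalised and limited these log10 values, no scanner values were used, and the number of arrays limits the precision.

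Names came from assembly R64, for 5704 of 6205 rows, and 12 control rows were left out. Arrays were centred on their median. limma 3.58.1 in R 4.3.3 (lmFit, eBayes) fitted window and cycle to the 8 arrays, and in further fits the 4 cells of window by cycle, or 4 positions and cycle. P-values are two-sided, adjusted by Benjamini-Hochberg over 5834 genes. Residual degrees of freedom were 5, 4 and 3. Named genes were YOX1, YHP1, members of the CLB2, M/G1, daughter separation, ECB and histone lists, up to 4 called members of other lists, the 10 highest and 10 lowest called differences, and the 6 largest calls each way of the cycle and position contrasts. Others, including the remaining called genes and those given with a p above 0.05 from other lists, were chosen after their values were seen. The windows and the gene lists were chosen with earlier results of these data known, and lists were described by counts and medians only. Simulated data with known changes were used to check the fits. Results of 1 further gene of this rule are not reported here.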

Additional observations from a re-analysis of the deposited data

Results flagged for a closer look

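PAC11 had 1 S/G2 value apart from the other 3, 0.178 at 30 min against 0.108 to 0.110. Chance flags about 1 in 20 groups of this size. The mean of the mitotic exit and APC list had steps of -0.021 in cycle 1 and 0.015 in cycle 2, with every array of the mitotic window below every array of the S/G2 window in the first cycle and above in the second. The median step of its members was 0.0140 in cycle 1 and 0.0115 in cycle 2, so that the turn in sign was in the mean only. The mean of the phosphate list had steps of -0.028 and 0.083, with its windows apart in the same 2 directions. Its median steps were -0.066 and 0.063. Neither difference between the cycles was tested.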

How the results depend on the processing

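Counts of called genes depended on the setting. Over both cycles, higher and lower counts of 13 and 20 became 29 and 74 with quantile normalization, 2 and 0 with values at the limit kept, 62 and 153 with array weights, 5 and 7 with a robust and trended prior, 0 and 0 with 13 arrays in the fit, 1 and 0 with no cycle term, 27 and 48 with 4 pairs of arrays 20 min apart, 93 and 147 with outer times only, and 0 and 0 with inner times only (243 at unadjusted p below 0.05). Leaving out 1 array at a time gave 0 to 33 higher and 0 to 86 lower. In cycle 1, counts of 27 and 112 became 15 and 58 with quantile normalization, 7 and 50 with limits kept, 4 and 16 with array weights, 0 and 0 with 13 arrays, and 0 to 142 and 0 to 281 without 1 array. In cycle 2 these were 0 to 2 and 0 to 4, for the difference between cycles 0 to 1 and 0 to 2, and for 60/120 against 50/110 min 0 to 20 and 0 to 3. From 30/90 to 40/100 min, 9 and 4 became 17 and 13 (quantile), 1 and 0 (limits kept), 20 and 25 (weights), 9 and 7 (robust), 0 and 0 (13 arrays), and 0 to 15 and 0 to 24 without 1 array. The causes were not tested.

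Of 85 named genes, 73 kept their sign in every setting run. The sign turned with outer times only for CDC6 (0.0099), SCW11 (0.058) and SWI4 (0.0026), with inner times only for DSE4 (-0.0015), RAX2 (-0.0003), RME1 (-0.035), SUN4 (-0.0007) and YHP1 (-0.014), and with array weights for RME1 (-0.0125). Leaving out 1 array, the ranges were -0.0509 to 0.0104 for CDC6, -0.0942 to 0.0093 for DSE1, -0.154 to 0.031 for HXT2, -0.0358 to 0.0040 for PIR3, -0.0591 to 0.0508 for RME1, -0.106 to 0.0206 for SCW11, -0.0036 to 0.0365 for SUN4, -0.0939 to 0.0561 for SWI4, -0.0020 to 0.0418 for VAC17 and -0.0065 to 0.0519 for YHP1. List medians kept their sign in all settings for 22 of 30 lists, the daughter separation median turning in 5 of 19. The planned search of promoters for motifs was not run. The 4 pairs above were set by time, since the labels give no replicate numbers, and no fit with a replicate block was made.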

Other observations

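A few large differences rest on 1 array. DNM1, a dynamin of mitochondrial division, read -1.35 at 110 min and 0.03 to 0.11 on the other 7 arrays. SMF1, a manganese transporter, read -1.005 at 110 min and -0.02 to 0.05 on the others, and YNL296W read 1.31 at 120 min and -0.17 to 0.04 on the others. None of the 3 was called.

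The proton pump genes PMA1 and PMA2, near-identical copies whose values are uncertain, were apart upward in both cycles without being called. PMA1 read -0.18, -0.01, 0.08 and 0.12 from 30 to 60 min and -0.11, -0.02, 0.09 and 0.11 from 90 to 120 min. AIM44, a bud neck protein, read -0.45, -0.36, -0.18 and 0.33, then -0.18, -0.30, -0.15 and 0.19, with an adjusted p of 0.111. These genes were chosen after their values were seen.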
